A study of Mus musculus with 768 samples.

Results

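The 10 genes described here, *H19*, *Peg3*, *Mest*, *Dlk1*, *Meg3*, *Plagl1*, *Cdkn1c*, *Grb10*, *Ndn* and *Impact*, are imprinted genes, most of them known for control of growth, and they were taken by symbol from the 24490 endogenous genes of the deposited tables. All 10 were found. They were read in cancer-associated fibroblasts (CAFs) sorted as EpCAM-, CD45-, CD31- and NG2-negative cells, to deplete epithelial, immune and endothelial cells and pericytes, from mammary tumors of 14-week-old FVB/N-Tg(MMTVPyVT)634Mul/J mice. In these mice the polyoma middle T oncogene is driven by the MMTV promoter, which is active in mammary epithelium, and no untreated or tumor-free group was analysed here. Each of 2 tumors filled 1 plate of 384 wells with 1 cell per well, so tumors are the replicates (n = 2), and tumor and plate cannot be told apart. Of 768 wells, 727 had at least 10000 endogenous reads, 373 from tumor 1 and 354 from tumor 2.

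Cells were placed in classes by 3 genes that are not among the 10. A cell with a *Top2a* RPKM (reads scaled to gene length and sequencing depth) of at least 10 was called *Top2a*-positive, *Top2a* being a topoisomerase of dividing cells. Of the others, a cell was called vascular when *Rgs5*, a mural cell gene, was at least 100 RPKM and above *Dcn*, and matrix when *Dcn*, which encodes the matrix proteoglycan decorin, was at least 100 RPKM and not below *Rgs5*. This gave 236 and 211 vascular, 86 and 81 matrix and 30 and 35 *Top2a*-positive cells in tumors 1 and 2, and 21 and 27 cells stayed unclassed. Of the 65 *Top2a*-positive cells, 59 met the *Rgs5* rule and 3 the *Dcn* rule, so this class was for the most part an *Rgs5*-high one.

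Imprinted genes are transcribed mainly from 1 parental chromosome, through methylation marks set in the germ line. In the mouse *Peg3*, *Mest*, *Dlk1*, *Plagl1*, *Ndn* and *Impact* are known as genes of the paternal allele, and *H19*, *Meg3* and *Cdkn1c* as genes of the maternal allele, as is *Grb10* in most tissues outside the brain. Many of them are expressed strongly in the embryo and fall after birth. The mice are of an inbred strain and the counts are per gene, so the parental allele was not measured.

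On GRCm38, the assembly of mm10, the genes lie as follows. *Dlk1* (chr12:109452485-109463336) and *Meg3* (chr12:109540996-109571729) are neighbours, 77.7 kb apart on the same strand. *Meg3* is a long non-coding RNA, and the same cluster goes on to *Rian* (chr12:109603945-109661716), a non-coding RNA, and to *Dio3* (chr12:110279230-110281097), 816 kb beyond *Dlk1*. *H19* (chr7:142575530-142578146), also non-coding, and *Cdkn1c* (chr7:143458339-143461059) lie 880 kb apart at the far end of chromosome 7. *Ndn* (chr7:62348277-62349928) and *Peg3* (chr7:6703892-6730462) are elsewhere on that chromosome. *Mest* (chr6:30733506-30748466), *Plagl1* (chr10:13090832-13131694) and *Grb10* (chr11:11930499-12037428) are each alone on their chromosome among the 10, as is *Impact*, whose position is not given here. Annotated genes overlap *Mest* (*Copg2* and *Gm44296*), *Meg3* (*Gm26906*), *Cdkn1c* (*Gm44732*) and *Ndn* (*Gm32061*) on the other strand, and Smart-seq2 libraries do not mark strand, so reads in these overlaps cannot be assigned.

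The start regions of the chromosome 12 cluster are shown because its genes gave the clearest differences between the classes. Each runs from 250 bases before to 50 bases after a transcript start (RefSeq, GRCm38.p6, plus strand), at chr12:109452573-109452872 for *Dlk1*, chr12:109540746-109541045 for *Meg3*, chr12:109603695-109603994 for *Rian* and chr12:110278980-110279279 for *Dio3*. For *Dlk1* that start lies 338 bases inside the gene span given above, so its window is wholly within the span, and for the other 3 genes it is the start of the span. Capitals mark CG dinucleotides, the sites that can carry methylation.
Dlk1: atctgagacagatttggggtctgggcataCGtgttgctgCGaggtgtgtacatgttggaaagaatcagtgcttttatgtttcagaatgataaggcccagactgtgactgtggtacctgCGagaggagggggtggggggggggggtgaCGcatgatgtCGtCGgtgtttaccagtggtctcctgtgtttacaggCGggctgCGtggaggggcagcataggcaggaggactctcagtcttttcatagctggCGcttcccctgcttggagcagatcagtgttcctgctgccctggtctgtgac
Meg3: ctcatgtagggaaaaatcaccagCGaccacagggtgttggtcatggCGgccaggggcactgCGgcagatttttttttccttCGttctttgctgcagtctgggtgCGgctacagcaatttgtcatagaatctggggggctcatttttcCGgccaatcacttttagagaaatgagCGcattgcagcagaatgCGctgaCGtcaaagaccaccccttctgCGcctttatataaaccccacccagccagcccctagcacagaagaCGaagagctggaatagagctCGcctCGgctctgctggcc
Rian: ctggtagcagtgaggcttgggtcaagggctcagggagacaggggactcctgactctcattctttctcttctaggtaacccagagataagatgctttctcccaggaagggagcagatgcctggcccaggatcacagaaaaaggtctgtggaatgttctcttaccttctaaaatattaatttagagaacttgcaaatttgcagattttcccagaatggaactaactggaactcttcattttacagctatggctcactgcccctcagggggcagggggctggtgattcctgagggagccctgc
Dio3: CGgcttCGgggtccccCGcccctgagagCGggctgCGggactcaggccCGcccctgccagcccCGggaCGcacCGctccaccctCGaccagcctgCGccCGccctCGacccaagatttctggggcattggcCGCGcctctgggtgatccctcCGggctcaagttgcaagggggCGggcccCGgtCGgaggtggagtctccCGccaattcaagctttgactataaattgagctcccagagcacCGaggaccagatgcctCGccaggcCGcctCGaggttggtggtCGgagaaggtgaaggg

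The *Dlk1* window held 9 CG, that of *Meg3* 13, that of *Rian* 0 and that of *Dio3* 25, against a median of 7 (quartiles 3 and 20) over 32851 windows of the same length. The letters TATAAA, read on both strands, were found in the *Meg3* and *Dio3* windows and in 13.6% of all windows. The letters GGGGCCCC, the same on both strands and close to the sequence that the zinc finger protein encoded by *Plagl1* is known to bind, were found in none of these 4 windows, in that of *Peg3* among the 11 windows of 7 members, and in 1.08% of all windows. *H19*, *Cdkn1c* and *Impact* had no window. These matches describe the letters only, and methylation was not measured.

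The classes were described by marker lists that include the genes that defined them, *Rgs5* among the vascular, *Dcn* among the matrix and *Top2a* among the cycling markers. In vascular against matrix cells, 9 of 10 vascular markers were higher and 10 of 10 matrix markers were lower, and 7 of 8 cycling markers were higher in *Top2a*-positive than in vascular cells. The shares of all genes in these directions were 4.56%, 5.85% and 1.46%. Other listed genes, such as *Notch3*, *Epas1*, *Col18a1*, *Nr2f2*, *Lum*, *Vcan*, *Col14a1*, *Fbln1* and *Fbln2*, were reported by the authors from these same cells. The counts thus describe the classes and do not test them. Total endogenous reads were 48531775 and 41074456 in the vascular, 22312520 and 19145545 in the matrix and 7700379 and 7993758 in the *Top2a*-positive cells of tumors 1 and 2. Per cell the medians were 4024 and 4121 genes with a read in vascular and 5532 and 5525 in matrix cells, and the median share of ERCC spike-in reads was 14.8% and 12.96% in vascular against 6.55% and 6.23% in matrix cells. Matrix cells thus gave more endogenous reads per spike-in read. Of 8 endothelial markers 4 and 5 had a read in the vascular cells of tumors 1 and 2, where their summed mean was 97.8 and 164 RPKM, and 4 and 6 in matrix cells, at 1.90 and 5.82 RPKM. Both that could be tested, *Emcn* and *Flt1*, were higher in vascular than in matrix cells (log2 fold changes 9.81 and 4.02, edgeR adjusted p = 0.00068 and 0.031), while *Pecam1* and *Cdh5* had no read in any vascular cell. The part of these genes in the members' values was not tested. Of 8 immune markers 4 and 5 had a read in vascular and 4 and 4 in matrix cells, at summed means of 1.84 and 3.34 against 14.01 and 6.22 RPKM, and neither of the 2 tested passed. An *Epcam* read was present in 8 and 19 vascular, 6 and 12 matrix, 0 and 3 *Top2a*-positive and 5 and 3 unclassed cells.

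**Figure D1:**
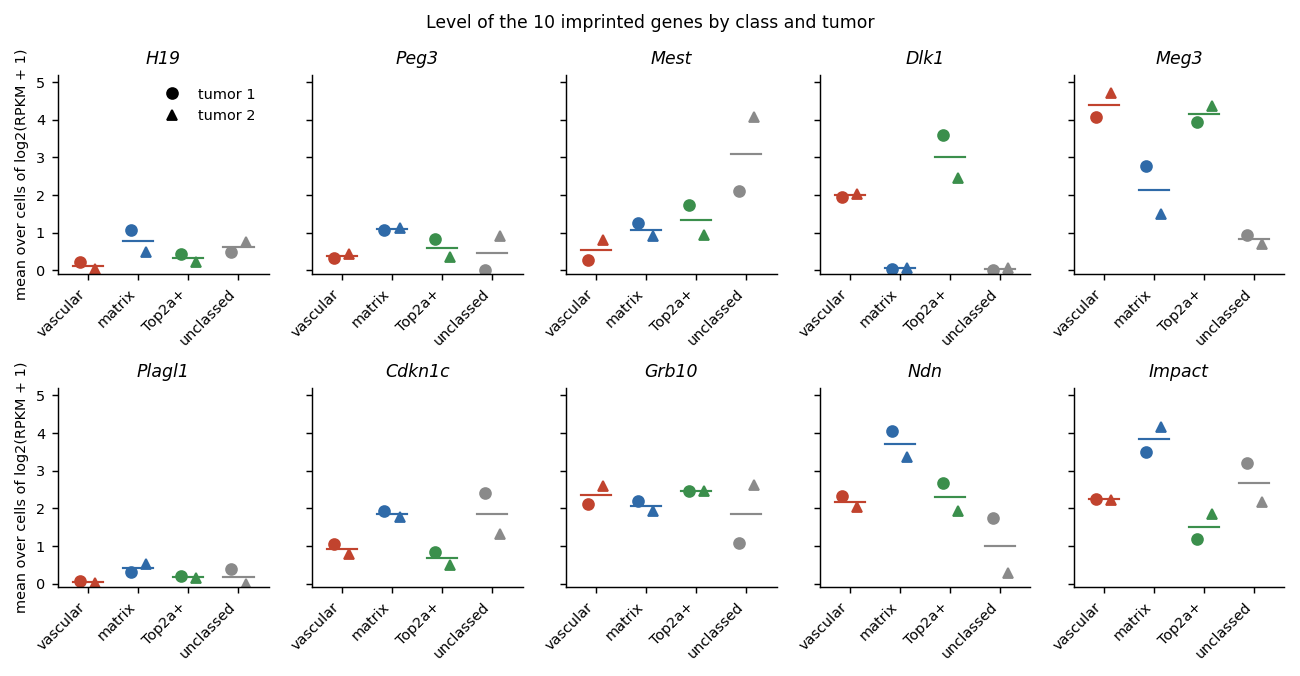
Mean over cells of log2(RPKM + 1) for each of the 10 genes in each class, 1 point per tumor (circle, tumor 1, and triangle, tumor 2), with the horizontal line at the mean of both tumors. *Dlk1* stands at 1.95 and 2.03 in vascular and 0.03 and 0.07 in matrix cells, and *Mest* is highest in the unclassed cells, at 2.11 and 4.07.

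Per gene length, *Meg3*, *Ndn*, *Mest*, *Impact*, *Dlk1* and *Grb10* were the more abundant members over all cells, and *Peg3*, *H19* and *Plagl1* the least. Mean RPKM over the cells of tumors 1 and 2 was 47.2 and 53.2 for *Meg3*, 64.0 and 43.3 for *Ndn*, 29.3 and 70.9 for *Mest*, 29.2 and 31.9 for *Impact*, 15.3 and 18.97 for *Dlk1* and 14.3 and 17.5 for *Grb10*. It was 11.8 and 7.35 for *Cdkn1c*, 10.4 and 3.18 for *H19*, 2.52 and 4.01 for *Peg3* and 1.68 and 1.14 for *Plagl1*. The tumors changed the order of *Meg3*, *Ndn* and *Mest*, so these neighbours did not differ beyond the spread of 2 tumors. A read was present in 519 of the 727 cells for *Meg3*, 389 for *Grb10*, 366 for *Impact*, 288 for *Ndn*, 248 for *Dlk1*, 185 for *Cdkn1c*, 124 for *Peg3*, 110 for *Mest*, 56 for *H19* and 26 for *Plagl1*. A cell carried reads of a median of 3 of the 10 genes in vascular and *Top2a*-positive cells and of 4 in matrix cells, in both tumors.

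The members differed in how their reads were spread over cells. For *Meg3*, 85 cells held 50% of all reads, and the counts were 70 for *Impact*, 67 for *Grb10*, 57 for *Ndn*, 40 for *Cdkn1c*, 25 for *Dlk1* and 20 for *Peg3*. For *Plagl1* it was 5 cells, and for *H19* and *Mest* 4 cells each. Class sums of *H19*, *Mest* and *Plagl1* therefore rest on a few cells, and 1 cell gave all 129 *H19* reads of the *Top2a*-positive cells of tumor 2, 90.1% of their *Mest* reads, and all *Plagl1* reads of that class in each tumor.

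To ask which members separate the 2 main CAF classes, reads were summed per class and tumor, and vascular and matrix cells were compared with edgeR's quasi-likelihood test over all 11715 genes whose mean RPKM was 1 or more. Levels in these comparisons are CPM, the gene's reads scaled to the reads of all tested genes in the summed library, after TMM scaling, a factor that sets the bulk of the genes equal between libraries. Of the 10 members, *Dlk1* was higher in vascular cells and the other 9 did not pass an adjusted p of 0.05. Of all genes tested 10.4% passed, 4.56% higher and 5.85% lower in vascular cells. The members' count was thus near that background. At an unadjusted p under 0.05 there were 4 members and 23% of all genes, and the median log2 fold change of the 10 was -0.95, beside 0.03 over all genes.

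*Dlk1* encodes a transmembrane protein of the Delta-like family that is known as preadipocyte factor 1 and restrains adipocyte differentiation. Its level was 86.5 and 125 CPM in the vascular cells of tumors 1 and 2, and 0.154 and 0.526 in the matrix cells. The tumors of the classes lay far apart, with 4391 and 5437 reads in vascular and 3 and 9 reads in matrix cells. The log2 fold change was 8.30 ± 0.55 (SE, n = 2 tumors per class, adjusted p = 0.00082 by edgeR), and in tumor 1, where the matrix cells held 3 reads, the ratio of CPM before TMM scaling was 673 with an exact 95% counting interval of 230 to 3264. The call held under all 23 alternatives, with log2 fold changes from 7.59 to 9.38 and adjusted p from 3.7e-49 to 0.0068. *Dlk1* did not mark every vascular cell: a read was found in 47.0% (40.5 to 53.6, exact 95% binomial interval) and 42.7% (35.9 to 49.6) of them, against 3.49% (0.725 to 9.86) and 4.94% (1.36 to 12.2) of matrix cells. Intervals cover counting error only. The summed mean of 8 adipocyte markers was 521 and 536 RPKM in vascular and 5.68 and 2.40 in matrix cells, and their part in the *Dlk1* difference was not tested. Only 2 and 3 of the 8 had a read in the vascular cells of tumors 1 and 2, and the hormone gene *Adipoq* had none. Of the 2 that could be tested, *Fabp4*, which encodes a fatty acid binding protein, was higher in vascular cells (355 and 357 against 0.720 and 0.643 CPM, log2 fold change 9.02 ± 0.22 SE, edgeR adjusted p = 0.00013), and *Pparg* did not pass (1.08 ± 0.96, adjusted p = 0.61). In cells thinned to 50000 reads the *Dlk1* shares were 40.3% and 38.9% in vascular and 1.27% and 2.60% in matrix cells.

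*Meg3*, the non-coding neighbour of *Dlk1* known from work on growth suppression, was read in both classes. Its level was 137 and 182 CPM in vascular and 89.4 and 43.8 in matrix cells. Both vascular libraries were above both matrix libraries, but the matrix libraries differed from each other by more than the vascular ones. The log2 fold change was 1.26 ± 0.37 (SE), with an adjusted p of 0.094 by edgeR, past 0.05 in 4 of 23 alternatives (lowest 0.015, highest 0.38). A read was present in 79.7% and 86.3% of vascular and 61.6% and 41.98% of matrix cells.

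**Figure D2:**
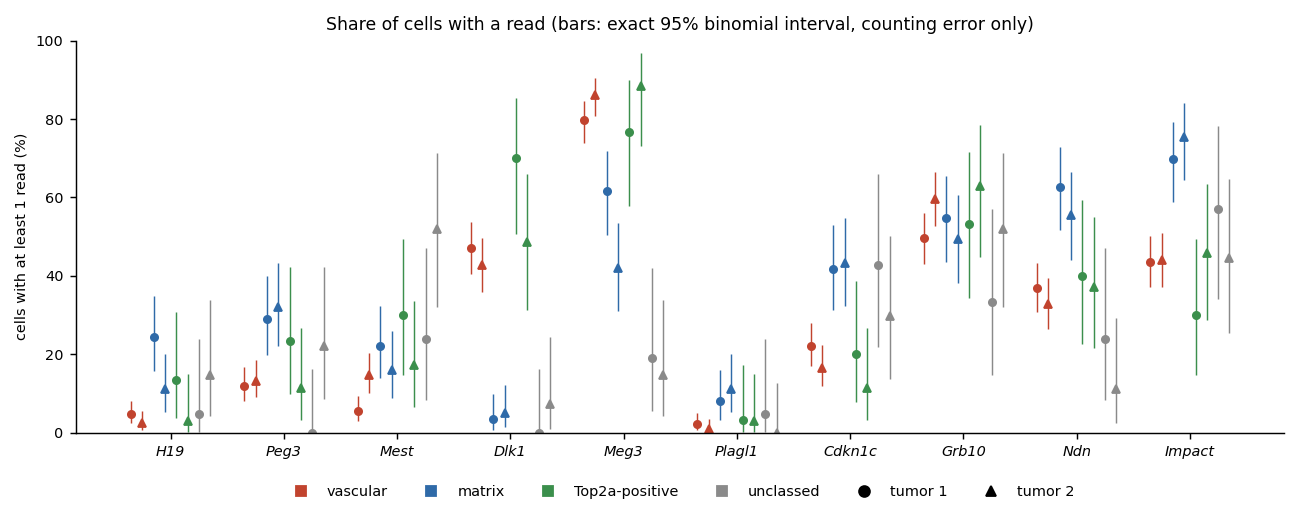
Percent of cells with at least 1 read of each gene, by class (color) and tumor (circle, tumor 1, and triangle, tumor 2), with exact 95% binomial intervals that cover counting error only. *Dlk1* is read in 42.7% to 47.0% of vascular but 3.49% to 4.94% of matrix cells, while *Impact* is read in 43.6% to 44.1% of vascular and 69.8% to 75.3% of matrix cells.

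*Cdkn1c*, *Ndn* and *Impact* were lower in vascular than in matrix cells in each tumor without passing the test. *Cdkn1c* encodes the cyclin-dependent kinase inhibitor p57, a brake on cell division. It stood at 15.99 and 12.4 CPM in vascular and 30.7 and 24.2 in matrix cells (log2 fold change -0.95 ± 0.41 SE, edgeR adjusted p = 0.24). *Ndn* encodes necdin, a MAGE family protein linked to cell cycle exit, and stood at 111 and 80.6 in vascular and 187 and 127 in matrix cells (-0.72 ± 0.33, adjusted p = 0.26). *Impact*, whose product restrains the amino acid stress kinase GCN2, stood at 99.6 and 94.6 in vascular and 159 and 213 in matrix cells (-0.94 ± 0.28, adjusted p = 0.10), and passed in 4 of 23 alternatives (lowest adjusted p 0.017, highest 0.42). For all 3 genes the vascular libraries lay below the matrix libraries. A read of *Impact* was present in 69.8% and 75.3% of matrix cells and 43.6% and 44.1% of vascular cells, and thinning to 50000 reads gave 65.8% and 74.0% against 39.4% and 39.9%. For *Ndn* the shares were 62.8% and 55.6% against 36.9% and 32.7%, and for *Cdkn1c* 41.9% and 43.2% against 22.03% and 16.6%.

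*Peg3* and *Plagl1* encode zinc finger proteins, and *Mest* encodes a hydrolase-like protein of mesoderm. *Peg3* was at 12.1 and 15.1 CPM in vascular and 41.5 and 47.7 in matrix cells, with no overlap and a log2 fold change of -1.71 ± 0.54 (SE, edgeR adjusted p = 0.12), and passed in 5 of 22 alternatives (lowest adjusted p 0.018, highest 0.73). *Mest* was at 11.6 and 38.5 in vascular and 64.4 and 47.1 in matrix cells (-1.15 ± 0.61 SE, edgeR adjusted p = 0.34). Its value ran from -2.26 to -0.55 with 1 library left out. *Plagl1* was at 2.66 and 0.046 in vascular and 14.1 and 38.0 in matrix cells (-4.26 ± 1.78, adjusted p = 0.22), and in tumor 2 rested on 2 reads in vascular against 650 in matrix cells. It passed in 1 of 22 alternatives, DESeq2 (-4.29, adjusted p = 0.030), and moved to -8.97 without the vascular library of tumor 1. The summed developmental CAF markers averaged 25.2 and 144 RPKM in vascular and 433 and 450 in matrix cells. By the test 1 of 8 was lower in vascular cells, beside 5.85% of all genes, and the median log2 fold change of the 8 was -3.31. The part of these markers in the *Mest* values was not tested. The spread between tumors was wide for *Mest* and *Plagl1*, whose reads came from few cells. *H19*, a non-coding RNA that is the precursor of a microRNA, was at 12.7 and 0.115 in vascular and 55.6 and 12.8 in matrix cells (-2.42 ± 1.83 SE, edgeR adjusted p = 0.54), its vascular tumors differing more than its classes. With 1 library left out the *H19* value ran from -8.14 to -1.02.

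*Grb10*, which encodes an adaptor that dampens insulin and IGF1 receptor signals, gave the smallest difference of the 10. It was at 78.2 and 100.1 CPM in vascular and 78.2 and 61.8 in matrix cells, and the classes overlapped. Its log2 fold change was 0.35 ± 0.25 (SE, edgeR adjusted p = 0.50), and with ERCC reads as the library size it turned to -0.35 (adjusted p = 0.31). In all, the tumors of the 2 classes did not overlap for 9 of 10 members, and for 58.1% of all genes tested. With ERCC reads as the library size the median log2 fold change over all genes was -0.68, and 5 members passed: *Dlk1* higher and *Peg3*, *Cdkn1c*, *Ndn* and *Impact* lower in vascular cells, where 23.4% of all genes passed and 14.3% of these were higher in vascular cells. The lower spike-in share of matrix cells moves with these 4 calls, and its part in them was not tested.

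**Figure D3:**
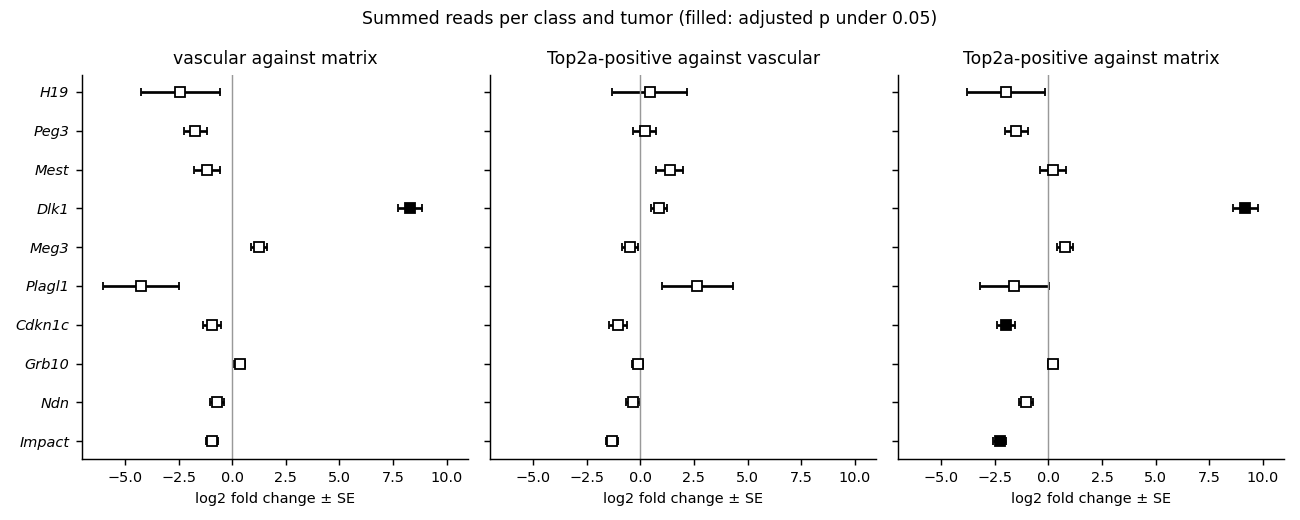
Log2 fold change of the 10 genes between classes in 3 comparisons (squares, with the SE as bars and n = 2 tumors per class), filled where the edgeR adjusted p was under 0.05 and open otherwise. *Dlk1* stands at 8.30 and 9.19 against matrix cells and at 0.89 between *Top2a*-positive and vascular cells. The comparisons share libraries.

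To ask whether members differ in dividing cells, *Top2a*-positive cells were compared with vascular and with matrix cells. These comparisons share the *Top2a*-positive libraries with each other, and the vascular and matrix libraries with the comparison above. Against vascular cells none of the 10 members passed the edgeR test (adjusted p from 0.11 to 0.95), where 1.58% of all genes did, 1.46% higher and 0.12% lower. At an unadjusted p under 0.05 there were 2 members and 14.9% of all genes, and DESeq2 called 1 member, *Impact*, and 8.56% of all genes. *Top2a*-positive cells had medians of 5537 and 5317 genes with a read and of 8.44% and 8.45% ERCC reads. The matrix CAF markers, *Dcn* among them, averaged 646 and 821 RPKM in sum in these cells against 166 and 261 in vascular cells (medians 23.4 and 34.7 against 11.2 and 14.8), with 1 of 10 higher by the test and a median log2 fold change of 2.41. The part of these values in the members' differences was not tested. The tumors of these classes did not overlap for 5 of 10 members and for 45.9% of all genes tested. *Impact* was at 29.6 and 47.7 CPM in *Top2a*-positive against 99.6 and 94.6 in vascular cells, with no overlap (log2 fold change -1.33 ± 0.29 SE, adjusted p = 0.11). It passed in 3 of 23 alternatives, with DESeq2 (adjusted p = 0.0021), with no filter on genes (0.045) and with a *Top2a* limit of 30 RPKM (0.031), and the highest value over the alternatives was 0.42. *Cdkn1c* was at 8.01 and 5.94 against 15.99 and 12.4 (-1.03 ± 0.42, adjusted p = 0.33). *Dlk1* was at 225 and 167 against 86.5 and 125 (0.89 ± 0.37, adjusted p = 0.34), and passed with ERCC reads as the library size (1.64, adjusted p = 0.035), under which the median log2 fold change of all genes stood at 0.74, beside -0.02 with TMM, and 20.7% of all genes passed. *Mest* was at 44.96 and 83.8 against 11.6 and 38.5 (1.36 ± 0.61, adjusted p = 0.38), and in tumor 2 1 cell gave 90.1% of these reads. That cell had reads of 1 of 8 developmental CAF markers. The summed level of these markers had medians of 1.70 and 40.6 RPKM (means 32.8 and 2272) in *Top2a*-positive and 0.567 and 32.4 (means 25.2 and 144) in vascular cells.

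With both sides limited to *Rgs5*-high cells the values were alike in direction. Here 9 members could be tested, 0 passed in edgeR (1.6% of 11215 genes did, 1.5% higher and 0.107% lower), and 2 had an unadjusted p under 0.05, as did 13.9% of all genes. These were *Impact* (-1.78 ± 0.31 SE, adjusted p = 0.076) and *Dlk1* (1.04 ± 0.27, adjusted p = 0.19). DESeq2 was not run on this comparison. *Impact* was at 23.5 and 36.0 CPM in the *Top2a*-positive and at 105 and 99.4 in the other *Rgs5*-high cells. *Cdkn1c* was at 9.33 and 6.38 against 16.8 and 13.04 (-0.93 ± 0.57, adjusted p = 0.55).

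Against matrix cells 3 of 10 members passed, *Dlk1* higher and *Cdkn1c* and *Impact* lower in *Top2a*-positive cells, where 16.7% of all genes passed, 8.52% higher and 8.18% lower. *Dlk1* differed by 9.19 ± 0.56 on the log2 scale (SE, edgeR adjusted p = 0.0011), from 225 and 167 CPM to 0.154 and 0.526. *Impact* differed by -2.27 ± 0.30 (adjusted p = 0.0066), with 29.6 and 47.7 against 159 and 213 CPM, and its call held at 0.05 in 23 of 23 alternatives (highest adjusted p 0.036). Over these alternatives its log2 fold change ran from -3.01 to -1.52. A read of *Impact* was present in 30.0% (14.7 to 49.4) and 45.7% (28.8 to 63.4) of *Top2a*-positive cells. *Cdkn1c* differed by -1.98 ± 0.43 (SE, edgeR adjusted p = 0.029), with 8.01 and 5.94 against 30.7 and 24.2 CPM, from 65 and 51 reads in *Top2a*-positive cells. As means of the tumors, 15.7% of *Top2a*-positive and 42.5% of matrix cells had a *Cdkn1c* read, so the call rests on few *Top2a*-positive cells. This call was less stable: the adjusted p was 0.38 with each cell scaled to the same total (log2 fold change -1.04), 0.28 with cells of at least 1 *Top2a* read as the class (-0.74), 0.063 with a *Top2a* limit of 30 and 0.054 with the unclassed cells added to the fit. Without the vascular library of tumor 1 or 2 it was 0.068 or 0.066, without the matrix library of tumor 1 or 2 0.14 or 0.094, and without the *Top2a*-positive library of tumor 2 0.055. In the fits with a library left out or with the unclassed cells added, these log2 fold changes lay between -2.14 and -1.78, near the value above, and with a *Top2a* limit of 30 the value was -1.54.

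With the tumor as a block, the classes of a tumor being from 1 animal, *Ndn* was also lower in *Top2a*-positive than in matrix cells (-1.07, adjusted p = 0.019, with 16.2% of all genes passing), beside -1.06 ± 0.33 (SE) and 0.080 without the block. Its levels were 92.6 and 58.1 against 187 and 127 CPM. *Peg3* was at 23.5 and 8.03 against 41.5 and 47.7 (-1.50 ± 0.54, edgeR adjusted p = 0.12), and it was -0.92 without the *Top2a*-positive library of tumor 2 (adjusted p = 0.14) and passed without that of tumor 1 (-2.47, adjusted p = 0.018) and with DESeq2 (-1.52, adjusted p = 0.041). *Meg3* and *Grb10* were within 0.78 and 0.22 on the log2 scale, with adjusted p of 0.21 and 0.60. *Mest*, *Plagl1*, *H19* and *Grb10* overlapped between these classes. *Plagl1*, at -1.60 on the log2 scale (adjusted p = 0.55), passed with a *Top2a* limit of 30 RPKM (adjusted p = 0.019), where both *Top2a*-positive libraries held 0 of its reads, so no fold is given.

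The neighbours of *Dlk1* and *Meg3* were read from a list of 48 other imprinted genes, of which 24 passed the filter on level. In vascular against matrix cells 1 was higher, *Rian*, and 1 lower, *Dio3*, while 22 did not pass and the median log2 fold change of the 24 was 0.29. The 2 of 24 that passed are near the 10.4% of all genes. They lie in the same cluster as *Dlk1* and *Meg3*. *Rian*, like *Meg3* a non-coding RNA of the maternal allele, was at 43.6 and 41.8 CPM in vascular and 11.98 and 9.70 in matrix cells (1.98 ± 0.29 SE, edgeR adjusted p = 0.011). *Mirg*, a further non-coding RNA of the cluster, was at 10.2 and 8.42 against 4.94 and 0.526 (1.76 ± 1.04, adjusted p = 0.40). *Dio3* encodes the deiodinase that inactivates thyroid hormone and, like *Dlk1*, is known for expression mainly from the paternal allele. It went the other way from *Dlk1*, with 0 and 1 reads in the vascular cells of tumors 1 and 2 and 730 and 324 in the matrix cells (adjusted p = 0.014). Over both tumors its CPM before TMM scaling was 2278 times higher in matrix cells, with a 95% counting interval of 408 to 90064. This interval pools the tumors and takes reads as independent, so it does not cover the spread between tumors or cells. A *Dio3* read was present in 24.4% and 19.8% of matrix cells, and in 0 of 236 vascular cells of tumor 1. A limit of 3 cells for a count of 0 stands there at 1.27%, and is not the exact binomial limit. *Dlk1* and *Dio3*, at the 2 ends of the cluster, thus had opposite differences between the classes. Of the 3 non-coding genes named between them, *Rian* was higher in vascular cells, and *Meg3* and *Mirg* did not pass.

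**Figure D4:**
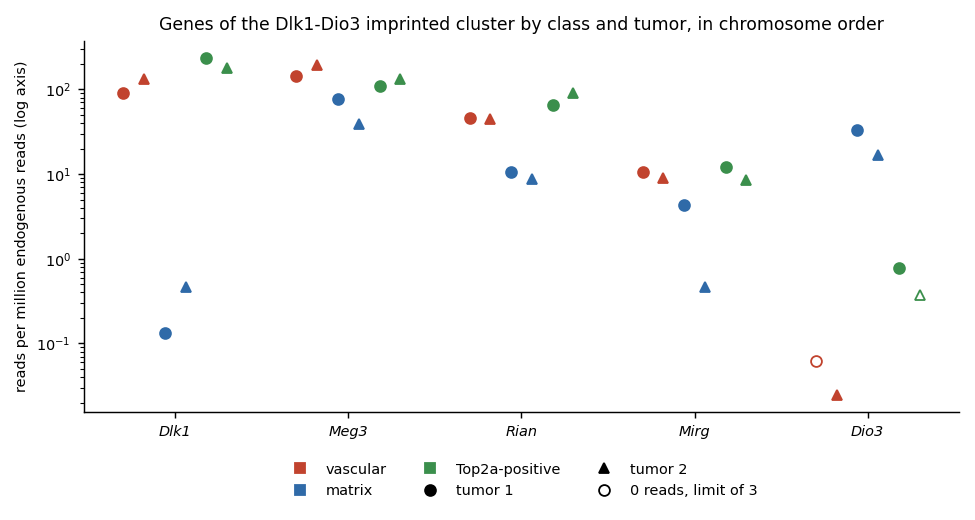
Levels over all endogenous reads, in CPM before TMM scaling (log axis), of 5 genes of the imprinted cluster on chromosome 12, in chromosome order, in the summed cells of each class (color) and tumor (circle, tumor 1, and triangle, tumor 2), with open symbols at the limit of 3 reads where a library held 0. *Dlk1* lies at 90.5 and 132 in vascular and 0.134 and 0.470 in matrix cells, and *Dio3* at 32.7 and 16.9 in matrix cells with 0 and 1 reads in vascular cells.

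In *Top2a*-positive against matrix cells *Rian* (2.76 ± 0.30 SE, edgeR adjusted p = 0.0039) and *Commd1* were higher and *Dio3* lower, and 21 of the 24 did not pass. In this comparison 16.7% of all genes passed. *Rian* was at 61.5 and 85.1 CPM in *Top2a*-positive cells. Against vascular cells none of the 24 passed in edgeR, beside 1.58% of all genes. *Commd1*, *Mirg* and *Igf2* were named after their values were seen, the last 2 for their place beside members. *Igf2*, the growth factor gene next to *H19*, was at 9.04 and 3.39 CPM in vascular and 0.103 and 7.01 in matrix cells (0.81 ± 2.03, adjusted p = 0.88), and its classes overlapped.

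For the setting of *Cdkn1c*, 9 other cell cycle inhibitors and D cyclins were listed, of which 8 could be tested. In vascular against matrix cells, where 10.4% of all genes passed, 2 were higher, 2 lower and 4 did not pass. *Cdkn1a*, which encodes p21, was at 32.3 and 54.0 against 306 and 320 CPM (-2.86 ± 0.28 SE, edgeR adjusted p = 0.0030), and *Cdkn2b*, which encodes p15, at 4.63 and 2.97 against 95.2 and 112 (-4.76 ± 0.40, adjusted p = 0.0018). *Cdkn2c*, which encodes p18, was at 32.6 and 31.6 against 10.8 and 10.4 (1.60 ± 0.26, adjusted p = 0.014), and *Ccnd1*, the cyclin D1 gene, at 238 and 149 against 37.9 and 34.2 (2.42 ± 0.26, adjusted p = 0.0038). The inhibitors did not move as a group, since p21 and p15 were lower and p18 higher in vascular cells. For the setting of *Grb10*, 10 genes of insulin and IGF receptor signalling were listed and 9 tested, of which *Igf1* was lower in vascular cells (11.5 and 36.7 against 319 and 608 CPM, -4.26 ± 0.63, adjusted p = 0.011) and 8 did not pass.

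*Mest* was highest in the cells that belonged to no class. Its mean RPKM was 302 and 625 in the unclassed cells of tumors 1 and 2, against 6.07 and 22.9 in vascular, 26.6 and 19.7 in matrix and 29.2 and 50.8 in *Top2a*-positive cells. A read was present in 5 of 21 and 14 of 27 unclassed cells, and 1 cell gave 55.3% and 47.1% of their *Mest* reads. These cells carry no common identity by the rule, and they were not tested. In a split made after the values were seen, a *Mest* read was present in 5 of 9 and 13 of 16 unclassed cells with reads of at least 4 of 8 developmental CAF markers, and in 0 of 12 and 1 of 11 of the others. Of 8 epithelial markers, 2 and 1 unclassed cells had at least 4, and *Mest* had a read in 0 and 1 of these cells. The median summed level of the developmental markers in unclassed cells was 58.7 RPKM in tumor 1 and 5055 in tumor 2, and of the epithelial markers 0 and 19.2. *H19* was at a mean RPKM of 54.7 and 19.5 in unclassed cells, in tumor 1 from 1 cell. *Cdkn1c*, at 38.7 and 10.96, was read in 9 of 21 and 8 of 27 of them. *Dlk1* had 0 and 2 reads in unclassed cells, and *Meg3* was read in 4 of 21 and 4 of 27.

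**Figure D5:**
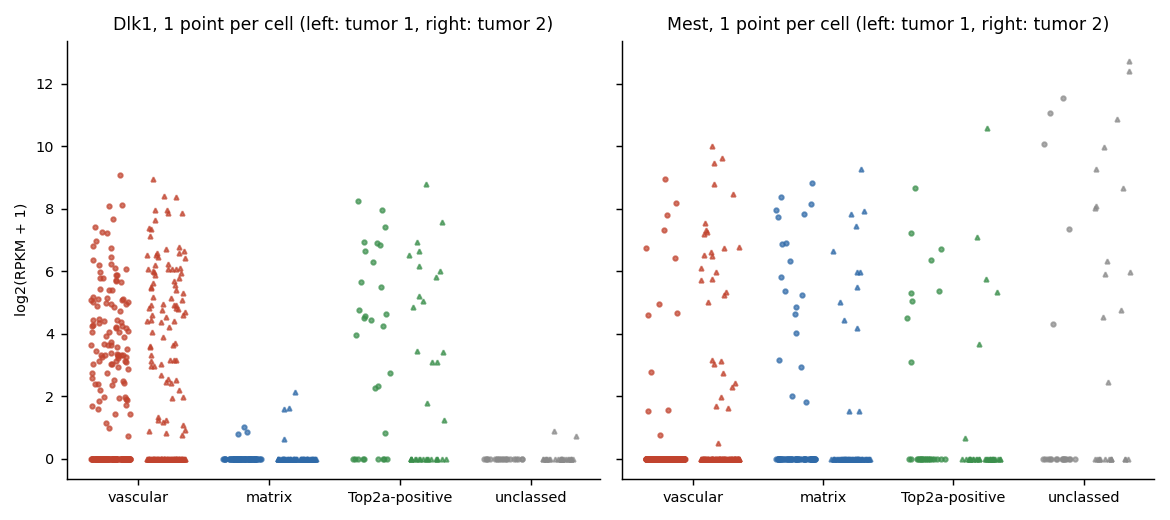
Level of *Dlk1* (left) and *Mest* (right) in every cell as log2(RPKM + 1), by class, with tumor 1 on the left (circles) and tumor 2 on the right (triangles) of each class. *Dlk1* is read in 111 and 90 vascular and 3 and 4 matrix cells of tumors 1 and 2, and the highest *Mest* cells are unclassed.

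Across the cells of each tumor, the genes most like each member were sought by Spearman correlation among 9601 genes, ranked by the lower value of the 2 tumors and given here as a description. *Meg3* was most like *Rian* (rho 0.44 and 0.53), then *Dlk1* (0.40 and 0.47) and *Notch3* (0.39 and 0.48). *Dlk1* was most like *Cox4i2* (0.51 and 0.48), *Rgs5* (0.47 and 0.46) and *Esam* (0.46 and 0.46), so its list included a gene that defined the vascular class. Cells of 1 tumor share a plate and the classes, and within vascular cells alone *Dlk1* and *Meg3* were correlated by 0.39 (236 cells) and 0.37 (211 cells). Of the vascular cells with a *Dlk1* read, 93.7% and 96.7% also had a *Meg3* read, and of those with a *Meg3* read 55.3% and 47.8% had a *Dlk1* read. Among all vascular cells the shares, as means of the tumors, were 82.96% for *Meg3* and 44.8% for *Dlk1*. For the other members the 3 most alike genes reached at most 0.34 in either tumor. The nearest were *Gstm2* and *Sparc* for *Ndn*, *Lrp1* for *Impact*, *Fmo1* for *Cdkn1c*, *Tanc2* for *Mest*, *Nxn* for *Peg3* and *Cdk4* for *Grb10*. *H19* and *Plagl1* were read in too few cells for the search. The rank correlation of the members with the reads of a cell lay between -0.04 and 0.23. For the alike genes named it ran in tumor 1 from -0.21 (*Notch3*) to 0.42 (*Sparc*), with 0.36 for *Cdk4* and 0.33 for *Nxn*. The part of depth in these likenesses was not tested.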

How the data were processed

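The authors sequenced sorted single cells by Smart-seq2, aligned reads to mm10 with STAR and deposited 2 tables, whole-number counts of reads per RefSeq gene and RPKM values made from them. Strand is not marked and there are no molecular identifiers. Column names gave the well and, by its plate, the tumor, with 0 columns unused, and 92 ERCC spike-ins were kept apart. The 41 wells under 10000 endogenous reads (11 and 30) were left out. No doublet caller was run, and 20 cells had both *Rgs5* and *Dcn* at 100 RPKM or more. The values nearest the limits were 159 and 71.6 RPKM for *Rgs5*, 104 and 96.9 for *Dcn* and 10.1 and 9.68 for *Top2a*.

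Deposited counts were summed per class and tumor into 6 libraries and compared in edgeR 4.0.16 (glmQLFit, glmQLFTest, TMM, no covariate, Benjamini-Hochberg adjusted p of 0.05 over all genes tested), with limma 3.58.1 loaded by it and R 4.3.3. The code was tested on simulated data. A class pair comes from 1 animal, and the deviations of the classes within a tumor correlated by 0.21, 0.13 and 0.12 over 8442 genes, so the tumor pairs them. Blocked values are given where a call changed. Alternatives were the block, DESeq2 1.42.0, other library sizes, filters, class limits and wells, each library or tumor left out and, added after the data were seen, the highest cell of each gene and library left out. The RPKM values deposited by the authors gave the classes, the filter and the levels, as means or as log2(RPKM + 1). Genes named are the 10 members, the listed genes that passed in vascular against matrix cells (at most 8 a list) and the 3 most alike genes of a member read in at least 10% of cells of both tumors, apart from *Commd1*, *Mirg*, *Igf2* and the marker genes of other cell types, which were named with their values known. The members and lists were chosen with earlier results of these data known.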

Additional observations from a re-analysis of the deposited data

Results flagged for a closer look

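In the 41 wells that were left out for having under 10000 endogenous reads, with 100255 reads in all, 3 members had more reads than the 3 that a count of 0 allows. There were 5 *Dlk1* reads in 1 well, 9 *Meg3* reads in 2 wells and 8 *Grb10* reads in 2 wells. These wells were in no comparison, and a few reads per gene give no level for a class.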

How the results depend on the processing

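With 2 tumors, 1 plate each, the tests rest on 2 libraries per class. The spread was estimated over all classes of a fit together, not within the compared pair alone, and the SEs come from that fit. Leaving out a vascular library thus also moved the adjusted p of *Cdkn1c* in *Top2a*-positive against matrix cells. The lowest levels (*Plagl1*, *H19*, *Dlk1* in matrix cells) rest on few reads or cells. Of the members called, *Dlk1* against matrix cells, in vascular and in *Top2a*-positive cells, and *Impact* in *Top2a*-positive against matrix cells had an adjusted p under 0.05 in all 23 alternatives, and *Cdkn1c* in the latter comparison did not.

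Vascular against matrix (1219 genes, 1 member called): DESeq2 called 2179 genes and 5 members, ERCC library sizes 2742 and 5, and an adjusted p of 0.001 left 81 genes. The fit with unclassed cells called 617 genes, and 2 members were called with no filter on genes (1487 genes), with each cell scaled to the same total (1146) and with at least 1 *Top2a* read as the class (1486). Leaving out 1 library gave 518 to 1668 genes and 1 to 3 members. Of the calls, 43.8% were higher in vascular cells, and 14.3% with ERCC library sizes.

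*Top2a*-positive against vascular (185 genes, 0 members): the tumor as a replicate block called 123 genes, DESeq2 1002, ERCC library sizes 2424, no filter 366, a mean RPKM of at least 10 gave 100, the added unclassed cells 26 and an adjusted p of 0.001 gave 0. DESeq2, ERCC library sizes, no filter and a *Top2a* limit of 30 (182 genes) each called 1 member, and leaving out 1 library gave 17 to 251 genes. *Top2a*-positive against matrix (1956 genes, 3 members): DESeq2 called 3227 genes and 5 members, an adjusted p of 0.001 left 28 and 0, and the added unclassed cells 830 genes, with 836 to 2138 when 1 library was left out. Beyond the *Ndn* call and the count of 123 genes, the replicate block changed no member's call.

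No called member changed direction. Those without a call that did were, for *Top2a*-positive against vascular, *Meg3* (0.29), *Grb10* (0.63) and *Ndn* (0.42) with ERCC library sizes, *Plagl1* with a *Top2a* limit of 30 (-8.22) and without the highest cell of each gene and library (-7.07), both fitted values with 0 reads in both *Top2a*-positive libraries, and *H19* without the highest cell (-1.75), with 0 reads in that of tumor 2. *Mest* against matrix cells was -0.092 with an *Rgs5* and *Dcn* limit of 30 and -0.70 without the highest cell, and *Grb10* in vascular against matrix cells -0.35 with ERCC library sizes. When a library or a tumor was left out, the *Top2a*-positive against vascular values ran from -2.51 to 6.96 for *H19*, -0.91 to 0.96 for *Peg3* and -0.44 to 0.19 for *Grb10*, and *Mest* against matrix cells from -0.52 to 0.83. In tumors 1 and 2 alone, *H19* in *Top2a*-positive against matrix cells was -4.64 and 0.23, and *Plagl1* 0.11 and -4.26. *Grb10* in vascular against matrix cells was -0.00056 in tumor 1 alone. Within *Rgs5*-high cells the tumors gave -3.07 and 7.12 for *H19*, 0.86 and -0.78 for *Peg3* and 0.099 and -0.31 for *Grb10*. The cause of these changes was not tested. With cells thinned to 50000 reads, 12 of the 40 shares of cells with a read (10 genes in 4 classes) moved by more than their SD over tumors, and 3 with an RPKM of at least 1 in place of 1 read.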
